A study of Homo sapiens with 2 samples.

Results

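The genes described here are 59 named genes of the cell division cycle, 29 that act in G1/S phase and DNA replication and 30 that act in G2 phase and mitosis, and they serve as a view of proliferation. They were chosen by name, and each one is matched to probe sets that carry a single gene symbol in the platform annotation. All 59 had such a probe set, out of 19775 genes with one on the array. The cells were RKO, an established line from a human colon cancer, infected either with a retrovirus for knockdown of BCLAF1-L (sh-BCLAF1-L, a single hairpin) or with a control retrovirus (sh-Luci). BCLAF1 is a nuclear protein with roles in transcription and RNA processing. Both cultures received fresh medium 24 h after infection and were selected with 2 ug/ml puromycin for 72 to 96 h, and the cells measured were stable lines. RNA of each group was measured on 1 array, so every value below is a single measurement with no replicate. No spread between cultures and no p-value can be given, and a difference between the hairpins and a difference between the arrays cannot be told apart.

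Cells about to copy their DNA switch on a group of genes under E2F transcription factors, which the RB protein family holds in check. Their products load and start the MCM helicase at origins, supply deoxynucleotides and pack new DNA into chromatin. Later in the cycle a different group, driven by the MuvB complex with B-MYB and FOXM1, provides CDK1 with its cyclins and the parts of the spindle, kinetochore and cytokinesis machinery. Because cells at rest express little of either group, their transcripts are widely read as markers of proliferation. In a bulk sample, a smaller share of cycling cells and less RNA per cycling cell cannot be told apart.

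A value is a deposited linear intensity, and a difference is log2(intensity + 1) in sh-BCLAF1-L minus that in sh-Luci. Each gene was represented by its brightest probe set. Detection required a mean at or above an intensity of 63.7, which is the 40th percentile of the array. This held for all 59 members and for 14507 of 19775 genes. The members spanned mean intensities from 186 to 3467, so none of them lay near the detection limit. Within a gene, the differences of separate probe sets scattered with an SD of 0.16 (log2) over 6752 genes, and of 0.12 over the 31 members that had several detected probe sets. That scatter holds no variation between cultures or between arrays.

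BCLAF1 itself was lower in sh-BCLAF1-L on all 6 of its probe sets, by 1.43-fold to 2.96-fold. The median intensity was 84.5 on the sh-BCLAF1-L array and 82.7 on the sh-Luci array. All 18 biotin spike-in probe sets were higher on the sh-BCLAF1-L array, with a median difference of 0.20, and the 3' to 5' ratio of ACTB was 3.81 against 3.41. Their part in the differences below was not tested. Of the 9 epithelial and intestinal markers, 6 were detected, of which 4 were higher and 2 lower. EPCAM read 472 in sh-BCLAF1-L and 477 in sh-Luci, whereas KRT18 read 674 in sh-BCLAF1-L and 979 in sh-Luci, a difference of -0.54. The other 4 lay between 0.023 and 0.20. The brightest probe sets of CDH1, KRT19 and KRT20 lay below the detection limit. Markers of other lineages were detected for 4 of 6 fibroblast genes, 2 of 4 endothelial genes and 1 of 6 blood cell genes. The fibroblast genes had a median difference of 0.13, and the detected blood cell gene, CD3E, one of -0.27. The part of these markers in the results was not tested.

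The differences of the cell cycle genes lay between -0.29 and 0.28. None of the 59 members reached 1.5-fold in either direction. Of all detected genes, 0.434% were at least that much higher and 0.200% at least that much lower, shares at which fewer than 1 of 59 genes would be counted, so the count of 0 does not set the members apart. At 1.2-fold, 1 member was higher (ORC6) and 1 was lower (ECT2), which is 57 of 59 members, or 96.6%, within 1.2-fold. Among all detected genes, 6.86% were at least 1.2-fold higher, 4.26% at least 1.2-fold lower, and 88.9% lay between. Dim genes scatter more, and among the 8545 detected genes inside the members' own intensity range 91.5% lay within 1.2-fold. The members' differences had an SD of 0.12, against 0.16 for the genes of that intensity range and 0.17 for all detected genes.

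**Figure D1:**
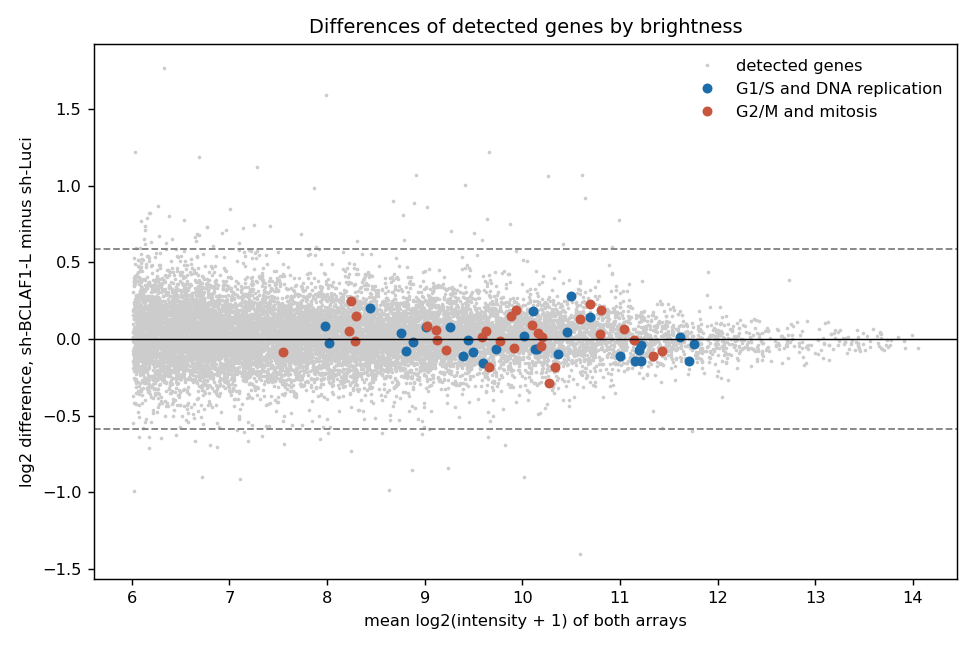
Differences of all detected genes (grey), G1/S and DNA replication genes (blue) and G2/M and mitosis genes (red) on the log2 scale, against the mean log2(intensity + 1) of both arrays; dashed lines mark 1.5-fold. All 59 members lie between -0.29 and 0.28, inside the dashed lines.

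The G1/S and G2/M genes sat on different sides of zero by small amounts. The G1/S and DNA replication genes had a median difference of -0.030 (quartiles -0.081 and 0.044), with 11 higher and 18 lower. Their share below zero was 62.1%, against 45.0% of all detected genes. The G2/M and mitosis genes had a median of 0.024 (quartiles -0.055 and 0.092), with 17 higher and 13 lower, a share of 43.3% below zero. The median over all detected genes was 0.019. Both list medians are ratios close to 1, namely 0.979 for G1/S and 1.02 for G2/M. With the median of all probe sets (0.026) taken off, the G2/M median was -0.0019, while it lay 0.0051 above the median of detected genes. Its direction thus depends on the reference and on the scaling, which is not fully known for the deposited values. The G1/S median was -0.056 after the same step, which takes off a positive value and could only move it further below zero.

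**Figure D2:**
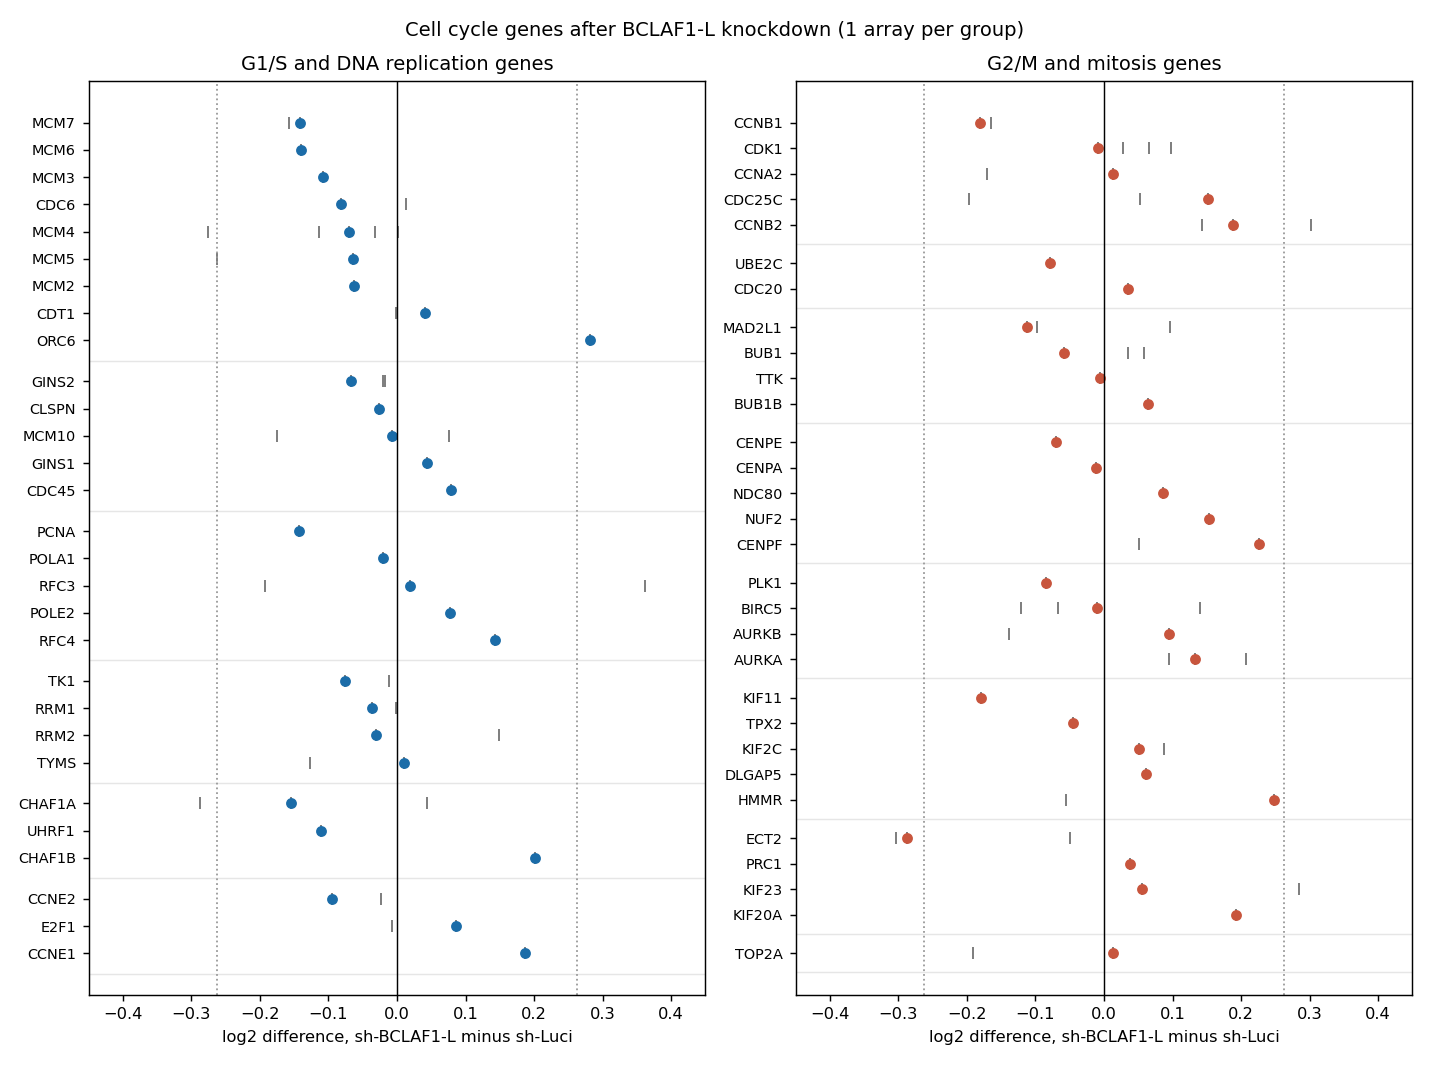
Log2 difference of each member, sh-BCLAF1-L minus sh-Luci, grouped by role and separated by grey lines, for G1/S and DNA replication genes (left) and G2/M and mitosis genes (right). Points are the brightest probe set, ticks are the gene's detected probe sets and dotted lines mark 1.2-fold, which ORC6 passes on the right and ECT2 on the left.

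Counts were also made over every detected probe set. Of 51 detected G1/S probe sets, 17 were higher and 34 lower, with a median of -0.024. Of 56 detected G2/M probe sets, 32 were higher and 24 lower, with a median of 0.035. Over all 26452 detected probe sets with 1 gene symbol, 46.1% were lower, with a median of 0.015. Probe sets of the same gene are not independent counts. All 107 members' probe sets lay between -0.30 and 0.36. Among the 31 members with several detected probe sets, those of 13 members all went the same way, or 41.9%, against 45.0% of the 6752 such genes on the array. The 13 were all higher in 5 cases and all lower in 8. The remaining 28 members rested on 1 detected probe set.

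The members' promoters were compared with those of other genes, because the factors named above act through short DNA motifs. RefSeq windows of GRCh38.p14 from 250 bases before to 50 bases after a gene's start were found for 51 of the 59 members, with 66 windows in all. AURKA, BIRC5, CCNE2, MCM4, MCM5, TPX2, TTK and UBE2C were not matched. An E2F site was searched as TTTCGCGC, TTTGGCGC, TTTCCCGC or TTTGCCGC, the CCAAT box of the factor NF-Y as CCAAT, and the cell cycle homology region, which MuvB binds, as TTTGAA. Each was searched on both strands, and sites of different motifs may overlap. A gene counted when any of its windows held the motif, so genes with several windows have more chances. A match is a description of the letters and does not show binding. Other forms of the motifs were not searched, so a gene without a match may still hold one.

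Of the 26 matched G1/S genes, 16 held an E2F site, or 61.5%, against 2 of 25 G2/M genes, or 8.0%, and 5.4% of 15843 protein-coding genes. The cell cycle homology region showed the opposite split. It was found in 1 G1/S gene (RRM1), or 3.85%, in 18 G2/M genes, or 72.0%, and in 15.8% of protein-coding genes. CCAAT boxes were in 18 of 26 G1/S genes, 20 of 25 G2/M genes and 42.1% of protein-coding genes. A CCAAT box and a cell cycle homology region stood together in 1 window for 15 of 25 G2/M genes, against 6.59% of protein-coding genes. The G1/S genes with an E2F site had a median difference of -0.045 (16 genes, 6 higher and 10 lower), and those without one of 0.036 (10 genes, 5 higher and 5 lower). Of the G1/S genes with a CCAAT box, 4 were higher and 14 lower (median -0.052), and of those without one, 7 were higher and 1 lower (median 0.060). The G2/M genes with TTTGAA had a median of 0.046 (18 genes), and those without these letters had a median of 0.013 (7 genes). These splits are descriptions of single values on 1 array per group and were not tested.

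**Figure D3:**
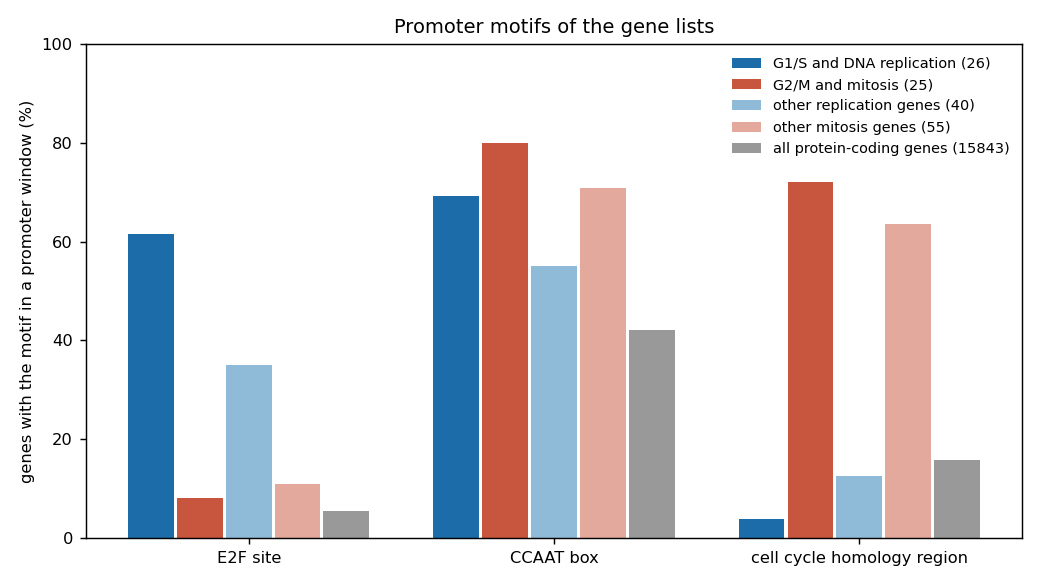
Share of genes, in percent, with an E2F site, a CCAAT box or a cell cycle homology region in a RefSeq promoter window, for the G1/S and G2/M members, the other replication and mitosis genes and all protein-coding genes; the number of genes is in brackets. E2F sites are in 61.5% of G1/S genes and the cell cycle homology region in 72.0% of G2/M genes, against 5.4% and 15.8% of protein-coding genes.

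Among the replication genes, the subunits of the MCM helicase read lower together. MCM2 to MCM7 form the ring that unwinds DNA ahead of the fork, and all 6 were lower in sh-BCLAF1-L, by -0.063 to -0.14, with a median of -0.089. MCM2 read 1108 in sh-BCLAF1-L and 1158 in sh-Luci. MCM3 read 646 in sh-BCLAF1-L and 696 in sh-Luci. MCM4 read 2280.2 in sh-BCLAF1-L and 2394 in sh-Luci. Each of these 3 subunits was lower by under 1.1-fold, and the 5 probe sets of MCM4 ran from -0.28 to 0.0013. MCM5 read 828 in sh-BCLAF1-L and 866 in sh-Luci, and its second probe set differed by -0.26. MCM6 read 2259 in sh-BCLAF1-L and 2490.1 in sh-Luci, a difference of -0.14. MCM7 read 2169.8 in sh-BCLAF1-L and 2393 in sh-Luci, and its second probe set differed by -0.16. Of the 12 detected probe sets of the ring, 11 were lower, and the other, of MCM4, read 526.9 in sh-BCLAF1-L and 526.4 in sh-Luci. All measured subunits also lay below zero with the middle value of their probe sets and with a loess curve subtracted. The middle value could not change MCM2 and MCM3, which have 1 probe set, and for MCM4 it is the brightest probe set. The subunits also lay below zero with _s_at and _x_at probe sets dropped (4 subunits left), where MCM3 and MCM6 kept the same probe set. Subtracting the array-wide median, a positive value, could only move them further below zero. None of the 6 differences on the brightest probe sets exceeds the SD of 0.16 between probe sets of a gene.

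The promoters of MCM3, MCM6 and MCM7 are shown because these subunits read lower together and share the E2F site; that of MCM2 lies after the start. Each line gives the 190 bases before a listed start, 5′ to 3′ on the gene's strand (RefSeq, GRCh38.p14). Capitals mark E2F sites and CCAAT boxes, several of them on the opposite strand. Where a gene has several windows, the window with most motif sites in this stretch was printed, here also the most upstream. MCM7 has 3 windows, and only the printed window holds an E2F site. MCM6 holds a pair of stretches in which E2F sites of both strands overlap. A further E2F site of MCM3 spans the start and is not shown.
MCM3 (chr6:52284743-52284932, minus strand): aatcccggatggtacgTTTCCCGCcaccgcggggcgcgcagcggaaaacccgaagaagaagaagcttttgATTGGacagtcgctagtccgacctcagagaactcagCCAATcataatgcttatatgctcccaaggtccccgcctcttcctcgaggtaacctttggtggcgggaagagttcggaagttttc
MCM6 (chr2:135876444-135876633, minus strand): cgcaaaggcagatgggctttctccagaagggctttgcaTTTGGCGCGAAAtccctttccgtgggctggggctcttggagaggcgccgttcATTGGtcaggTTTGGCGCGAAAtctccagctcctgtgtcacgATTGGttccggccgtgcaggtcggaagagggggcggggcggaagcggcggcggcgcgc
MCM7 (chr7:100101398-100101587, minus strand): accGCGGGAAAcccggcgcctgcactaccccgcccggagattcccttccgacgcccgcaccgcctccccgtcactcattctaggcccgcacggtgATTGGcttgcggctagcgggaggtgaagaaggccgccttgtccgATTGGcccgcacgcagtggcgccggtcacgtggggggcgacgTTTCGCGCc

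The factors that load the helicase were mixed. ORC6, the smallest subunit of the origin recognition complex, had the highest difference of all members, with 1596 in sh-BCLAF1-L and 1313 in sh-Luci, a 1.22-fold higher value. Of all detected genes, 5.71% had a higher difference. ORC6 was measured by a single probe set, an _x_at one, of the kind that can match several transcripts. It therefore had no value when _s_at and _x_at probe sets were dropped. CDC6, which helps load the helicase, read 701 in sh-BCLAF1-L and 741 in sh-Luci, a difference of -0.081 within the range of the ring, while its second probe set differed by 0.012. CDT1, its partner in loading, read 438 in sh-BCLAF1-L and 425 in sh-Luci.

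The factors that turn the loaded ring into a moving fork lay close to zero. CDC45 read 530.2 in sh-BCLAF1-L and 502 in sh-Luci. GINS1 and GINS2, subunits of the GINS complex, differed by 0.044 and -0.067. MCM10, needed to start the fork, read 693 in sh-BCLAF1-L and 696 in sh-Luci, with differences from -0.18 to 0.076 over its 3 probe sets. CLSPN (claspin, a fork checkpoint mediator) read 256 in sh-BCLAF1-L and 260.5 in sh-Luci. These 5 members had a median of -0.0067.

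PCNA, the sliding clamp of DNA polymerases and a common marker of S phase, read 3185 in sh-BCLAF1-L and 3518 in sh-Luci on its single probe set. Its difference of -0.14 is about that of MCM6 and MCM7, and 14.6% of all detected genes had a lower one. The clamp loader subunit RFC4 was on the other side of zero, with 1736 in sh-BCLAF1-L and 1572 in sh-Luci. RFC3, of the same loader, read 1042 in sh-BCLAF1-L and 1029 in sh-Luci, but its other probe sets differed by -0.19 and 0.36, the widest disagreement among the members. The polymerase subunits POLA1 and POLE2 differed by -0.020 and 0.078.

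The promoter stretch of PCNA, drawn as for the MCM genes, holds an E2F site on the opposite strand between CCAAT boxes.
PCNA (chr20:5126623-5126812, minus strand): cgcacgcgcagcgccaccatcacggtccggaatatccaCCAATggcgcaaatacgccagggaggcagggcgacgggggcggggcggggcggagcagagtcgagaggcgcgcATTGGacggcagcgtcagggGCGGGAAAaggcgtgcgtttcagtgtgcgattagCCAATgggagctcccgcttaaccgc

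Genes that supply deoxynucleotides lay close to zero, with 4 members between -0.076 and 0.011. RRM2, the regulated subunit of ribonucleotide reductase, read 3431 in sh-BCLAF1-L and 3503 in sh-Luci, while its second probe set read 3458 in sh-BCLAF1-L and 3119.9 in sh-Luci. RRM1, the large subunit, read 2338 in sh-BCLAF1-L and 2398 in sh-Luci. TYMS (thymidylate synthase) read 3139 in sh-BCLAF1-L and 3115 in sh-Luci, while its second probe set differed by -0.13. TK1 (thymidine kinase) read 435 in sh-BCLAF1-L and 458 in sh-Luci. Both TK1 probe sets were lower, by under 1.1-fold.

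The chromatin assembly subunits CHAF1A and CHAF1B, which deposit histones behind the fork as one complex, went in opposite directions. CHAF1A read 732 in sh-BCLAF1-L and 815 in sh-Luci, with differences from -0.29 to 0.044 over its 3 detected probe sets. CHAF1B read 371 in sh-BCLAF1-L and 322 in sh-Luci on its single probe set, a 1.15-fold higher value. UHRF1, which directs DNA methylation to newly copied DNA, read 1971 in sh-BCLAF1-L and 2129.7 in sh-Luci.

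At the G1/S switch itself, E2F1 read 259.5 in sh-BCLAF1-L and 245 in sh-Luci, and its second probe set differed by -0.0078. The E cyclins, partners of CDK2 at the start of S phase, also went apart. CCNE1 read 1176 in sh-BCLAF1-L and 1034 in sh-Luci, a difference of 0.19. CCNE2 read 1273 in sh-BCLAF1-L and 1359 in sh-Luci, a difference of -0.095, and its second probe set was lower too.

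**Figure D4:**
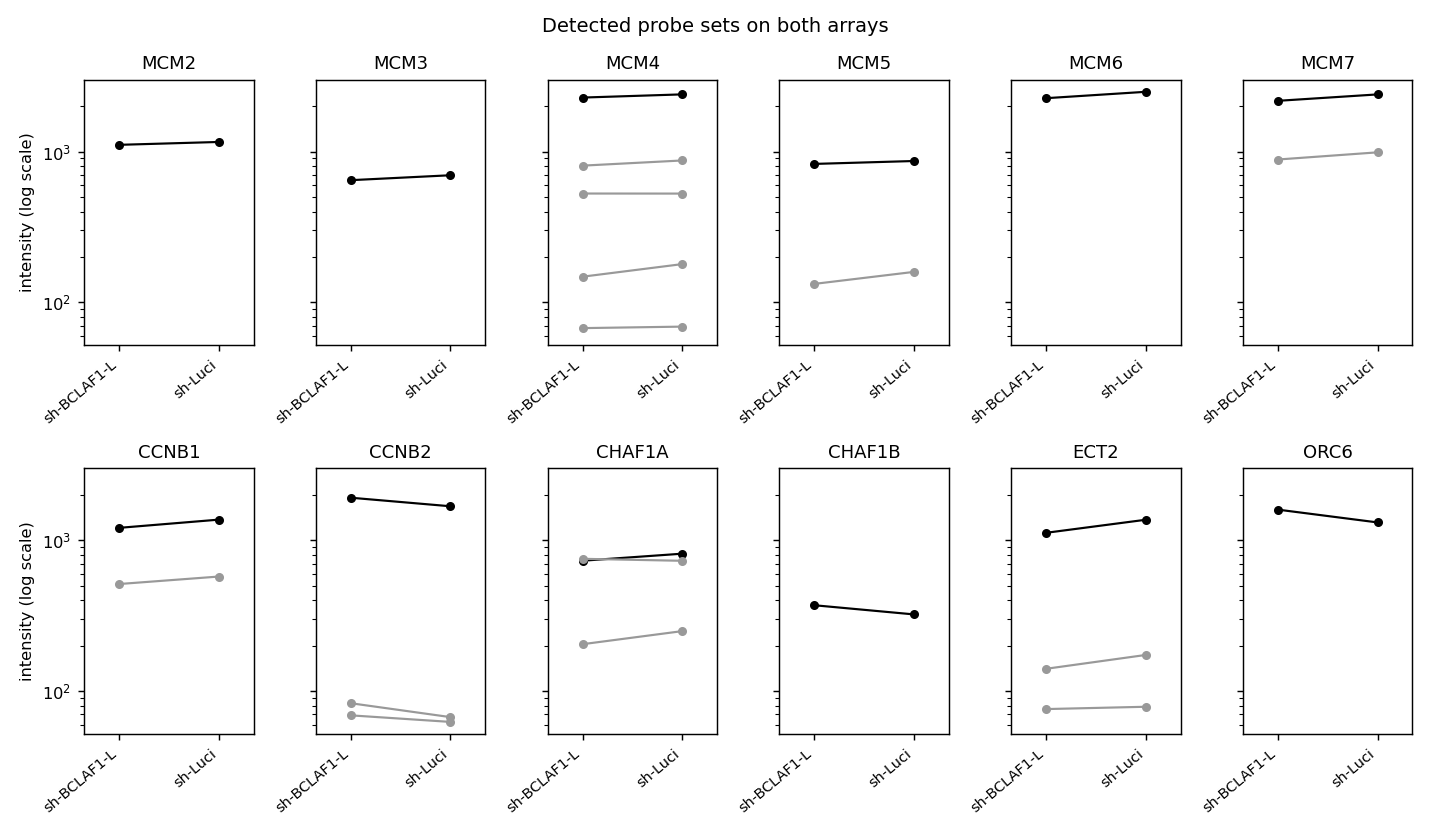
Intensity of each detected probe set in sh-BCLAF1-L (left) and sh-Luci (right) on a log scale, for the 6 MCM ring subunits and 6 further members; black is the brightest probe set of a gene, grey the others, and brightness is not comparable between probe sets. Values are lower in sh-BCLAF1-L for CCNB1, ECT2 and the MCM genes, except for 1 MCM4 probe set that is level, higher for CCNB2, CHAF1B and ORC6, and mixed for CHAF1A.

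Among the mitotic genes, the B cyclins moved apart on every probe set. CCNB1, the main cyclin of CDK1 at mitotic entry, read 1208 in sh-BCLAF1-L and 1369.8 in sh-Luci. Its second probe set read 512 in sh-BCLAF1-L and 575 in sh-Luci, so both were lower, by -0.18 and -0.16. CCNB2, the other B cyclin, read 1915 in sh-BCLAF1-L and 1680.2 in sh-Luci, and its 3 probe sets were higher by 0.14 to 0.30. The 2 dimmer probe sets of CCNB2 read 62.4 to 67.2 in sh-Luci, next to the detection limit. Both cyclins kept their direction in the same 4 recalculations as the ring, although median subtraction could not have changed that of CCNB1. As the probe sets of each cyclin share a sign, the middle value and dropping probe sets could not have turned either. CDK1 read 2251 in sh-BCLAF1-L and 2266 in sh-Luci, with differences from -0.0091 to 0.097 over 4 probe sets. CCNA2, the A-type cyclin of S phase and G2, read 769.7 in sh-BCLAF1-L and 763 in sh-Luci, while its second probe set differed by -0.17. CDC25C, a phosphatase that activates CDK1, read 329.5 in sh-BCLAF1-L and 297 in sh-Luci, and its 3 probe sets ran from -0.20 to 0.15.

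The promoters of both B cyclins are shown because the genes differ in direction, next to those of ECT2 and HMMR, the G2/M members with the lowest and the highest difference. Each line again gives the 190 bases before a start, chosen in the same way, with CCAAT boxes and TTTGAA in capitals. CCNB1 holds 2 CCAAT boxes and CCNB2 holds 3, and TTTGAA was found for CCNB2 and not in the CCNB1 window. Other forms of the cell cycle homology region were not searched in either. ECT2 and HMMR each hold both motifs, although they lie at opposite ends of the list.
CCNB1 (chr5:69166960-69167149, plus strand): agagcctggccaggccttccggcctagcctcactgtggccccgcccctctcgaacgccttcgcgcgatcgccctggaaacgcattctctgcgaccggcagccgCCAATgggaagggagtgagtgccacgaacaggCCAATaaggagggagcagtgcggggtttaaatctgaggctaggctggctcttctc
CCNB2 (chr15:59104956-59105145, plus strand): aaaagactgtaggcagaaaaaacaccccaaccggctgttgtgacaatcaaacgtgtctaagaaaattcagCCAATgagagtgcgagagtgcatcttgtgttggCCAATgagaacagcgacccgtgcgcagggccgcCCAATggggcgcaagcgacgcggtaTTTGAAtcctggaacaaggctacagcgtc
ECT2 (chr3:172750536-172750725, plus strand): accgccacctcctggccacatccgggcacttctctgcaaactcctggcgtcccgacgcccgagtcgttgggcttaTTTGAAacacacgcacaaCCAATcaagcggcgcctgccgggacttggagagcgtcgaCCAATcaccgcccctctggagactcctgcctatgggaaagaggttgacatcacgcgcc
HMMR (chr5:163460442-163460631, plus strand): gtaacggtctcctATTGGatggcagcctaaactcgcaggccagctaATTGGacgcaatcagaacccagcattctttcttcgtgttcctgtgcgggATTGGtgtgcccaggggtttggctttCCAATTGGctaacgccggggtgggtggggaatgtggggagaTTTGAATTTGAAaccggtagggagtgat

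ECT2, the exchange factor that activates RhoA for cytokinesis, had the lowest difference of the members. It read 1120.5 in sh-BCLAF1-L and 1368 in sh-Luci, a 1.22-fold lower value, and 3.21% of all detected genes had a lower difference. Its other probe sets were lower as well, by -0.30 and -0.050. The first 2 can match several transcripts, and without such probe sets the difference was -0.050. KIF23, a kinesin of the central spindle, read 305 in sh-BCLAF1-L and 293 in sh-Luci. The cytokinesis genes KIF20A and PRC1 were higher, with KIF20A at 1044 in sh-BCLAF1-L and 913 in sh-Luci and PRC1 at 1161 in sh-BCLAF1-L and 1132 in sh-Luci.

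HMMR and CENPF were the highest of the G2/M members. HMMR, a spindle assembly factor, read 329 in sh-BCLAF1-L and 277 in sh-Luci, a difference of 0.25, but its second probe set differed by -0.055. CENPF, an outer kinetochore protein, read 1782 in sh-BCLAF1-L and 1523 in sh-Luci, a difference of 0.23, and its other detected probe set differed by 0.050. NUF2, of the microtubule-binding NDC80 complex, read 995 in sh-BCLAF1-L and 895 in sh-Luci. Its partner NDC80 read 535 in sh-BCLAF1-L and 504 in sh-Luci. The median over the 5 kinetochore members was 0.085, with CENPA, the centromeric histone, at -0.012 and CENPE, a kinetochore kinesin, at -0.071.

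The spindle motors did not move together. KIF11, the kinesin that pushes spindle poles apart, read 760.3 in sh-BCLAF1-L and 861 in sh-Luci on its single probe set, a difference of -0.18. KIF2C, a microtubule depolymerase, read 804 in sh-BCLAF1-L and 776 in sh-Luci, and both its probe sets were higher. TPX2, an activator of Aurora A, differed by -0.045 and DLGAP5, a microtubule-binding protein, by 0.061.

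AURKA, the Aurora kinase of spindle poles, was higher on all 3 probe sets, with 1616 in sh-BCLAF1-L and 1474 in sh-Luci on the brightest and differences from 0.094 to 0.21. AURKB, the kinase of the chromosomal passenger complex, read 1131 in sh-BCLAF1-L and 1059.7 in sh-Luci. The second AURKB probe set, near the detection limit, went the other way, by -0.14, so AURKB has no settled direction. Its partner BIRC5 (survivin) read 868 in sh-BCLAF1-L and 874 in sh-Luci, with 4 probe sets between -0.12 and 0.14. PLK1, the polo kinase of mitotic entry, read 180.2 in sh-BCLAF1-L and 191 in sh-Luci.

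The 4 spindle checkpoint members and the 2 partners of the anaphase-promoting complex among the members lay between -0.11 and 0.065. MAD2L1, the checkpoint inhibitor of CDC20, read 2487 in sh-BCLAF1-L and 2689 in sh-Luci. Its 3 probe sets ran from -0.11 to 0.096. The checkpoint kinases BUB1 and TTK differed by -0.058 and -0.0053, and BUB1B by 0.065. The other detected probe sets of BUB1 went the other way, by 0.059 and 0.035. CDC20, the activator of the anaphase-promoting complex, read 1808 in sh-BCLAF1-L and 1765 in sh-Luci. UBE2C, its ubiquitin-conjugating enzyme, read 2691 in sh-BCLAF1-L and 2843 in sh-Luci. TOP2A, the topoisomerase that untangles chromosomes, read 1177 in sh-BCLAF1-L and 1167 in sh-Luci, while its second probe set read 1005 in sh-BCLAF1-L and 1147 in sh-Luci.

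Other genes of the same processes differed by similarly small amounts. Of 48 detected replication genes, 27 were higher and 21 lower, with a median of 0.023, none at 1.5-fold and 2 at least 1.2-fold lower. The share below zero of 62.1% among the G1/S members stood against 43.8% in these genes. Of 63 detected mitosis genes, 36 were higher and 27 lower, with a median of 0.032, none at 1.5-fold and 3 at least 1.2-fold higher. MKI67, the Ki-67 proliferation antigen, read 1039.5 in sh-BCLAF1-L and 1010.3 in sh-Luci, and its 4 probe sets ran from -0.39 to 0.049.

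**Figure D5:**
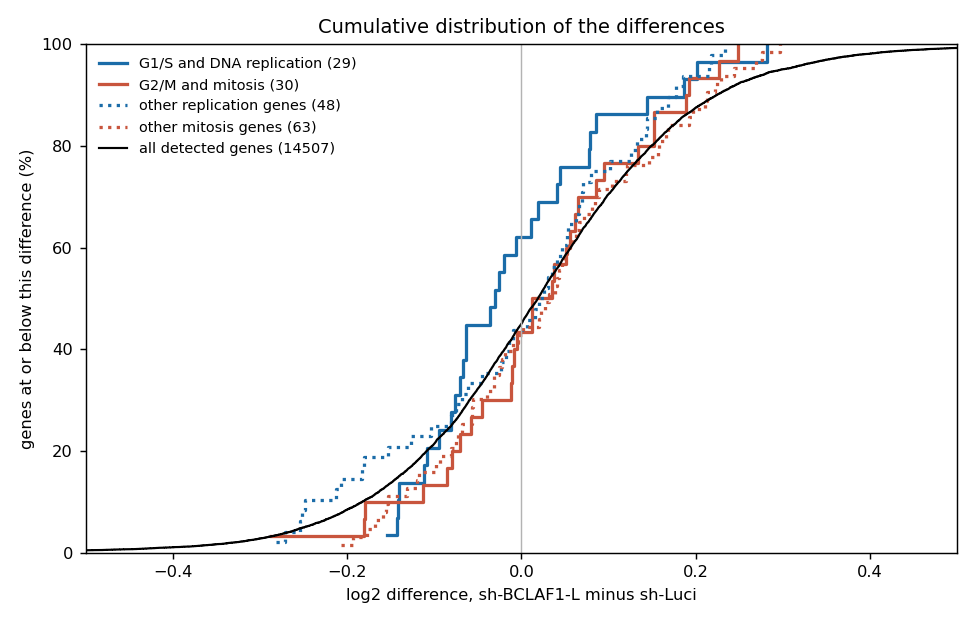
Cumulative share of genes, in percent, by log2 difference for the G1/S and G2/M members (solid), the other replication and mitosis genes (dotted) and all 14507 detected genes (black). The G1/S curve crosses zero at 62.1% and the black curve at 45.0%, while the G2/M curve crosses it at 43.3%, the other replication genes at 43.8% and the other mitosis genes at 42.9%.

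Genes that set the pace of G1 showed a lower median than either member list. Of 14 detected CDK inhibitors, D cyclins, G1 kinases, RB family genes and E2F4, 3 were higher and 11 lower, with a median of -0.081 and none at 1.5-fold. At 1.2-fold, 1 was higher and 2 were lower, which leaves 78.6% within 1.2-fold, against 88.9% of all detected genes. These 3 were named after their values were seen. They were CDKN2A, an inhibitor of CDK4 and CDK6, at 0.45, CCND1, the cyclin D1 that activates these kinases, at -0.44, and CDK4 itself at -0.27. CDKN2A read 95.1 in sh-BCLAF1-L and 69.2 in sh-Luci, close to the detection limit of 63.7, and its other detected probe set differed by 0.089. The second probe set of CCND1 differed by -0.089. CDKN1A (p21), the p53-induced inhibitor that stops the cycle, read 1599 in sh-BCLAF1-L and 1757 in sh-Luci, a difference of -0.14. When each gene was given the middle value of its probe sets, the list's median was -0.025, with 5 higher and 9 lower. The list joins genes that brake the cycle and genes that drive it, so its median has no single meaning for the pace of G1. On the brightest probe sets the D cyclins, CDK4 and CDK6 were all lower, while the CDK inhibitors went both ways.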

How the data were processed

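RNA of 2 RKO cultures was hybridised to Affymetrix arrays, 1 per group, after biotin labelling of 200 ng total RNA, per the labels' protocols. The authors deposited linear probe set intensities, and RMA is named per the submitters' processing notes (program and version not given in the sources used here). Values reach exactly 1 on both arrays (16 probe sets in sh-BCLAF1-L and 11 in sh-Luci) and the distributions differ, so the final scaling is unknown. The lower and upper quartiles were 41.7 and 226 for sh-BCLAF1-L and 40.7 and 223 for sh-Luci. The number of arrays limits the precision. Of 54675 probe sets, 41097 had 1 gene symbol, 1801 several and 11777 none. Symbols were updated by Entrez identifier (RefSeq, GRCh38.p14), which held 41043 of the 41097. Intensities were transformed as log2(value + 1). Folds of 1.5 and 1.2 were counted, with no test. Members, roles and lists were chosen with earlier results of these data known; complexes were grouped after the values were seen. Described in full were the 6 members with the largest difference each way, members whose probe sets differ in sign by 0.4 or more, PCNA, CDK1, CCNB1, TOP2A and MCM2 to MCM7. Alternatives were the median over probe sets, no _s_at or _x_at probe sets, no filter, the 60th percentile, median or loess subtraction (span 0.3) and a pseudocount of 32. The procedure was tested on simulated data with planted changes of 1.5-fold or more. No member reached such a change, so that test does not cover differences of the size seen here. Python 3.11.15, pandas 2.3.3, numpy 2.4.6, statsmodels 0.14.6 and matplotlib 3.10.9 were used.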

Additional observations from a re-analysis of the deposited data

How the results depend on the processing

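No paired analysis was possible because there was a single array for each group, which also meant that none could be left out. Counts of members at 1.5-fold were 0 in every setting, and those at 1.2-fold started from 1, so they say little about stability. The count of members at least 1.2-fold higher was 0 after the median difference was subtracted, where ORC6 stood at 0.256. The count at least 1.2-fold lower was 0 when _s_at and _x_at probe sets were dropped, where 47 members had a value and ECT2 stood at -0.050. The G1/S median lay between -0.056 and -0.020 and the G2/M median between -0.0019 and 0.036. The median of the G1 pace-setting genes was -0.025 with the median over probe sets, against -0.081 as reported. Of the 59 members, 48 kept their sign in the 4 alternatives that can change one. The filters and the pseudocount cannot, and median subtraction can turn only a positive difference. The choice of probe sets cannot turn a member with 1 probe set. With 1 array per group, no size of difference can be called resolved.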

Other observations

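Other protein complexes that hold at least 1 member were compared subunit by subunit; they were grouped after the values were seen. The 5 subunits of the RFC clamp loader were all higher, by 0.015 to 0.14, with 10 of 11 detected probe sets higher. After the median difference was subtracted, 3 of the 5 were higher. The 4 subunits of polymerase alpha and primase were all lower, by -0.020 to -0.13, although 2 of their 6 probe sets were higher.

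Most complexes mixed directions. In the origin recognition complex, 3 subunits were higher and 3 lower, from ORC5 with 885 in sh-BCLAF1-L and 1051 in sh-Luci to ORC6 at the other end. Among 6 subunits of polymerases delta and epsilon, 4 were lower, with POLD2 at 525 in sh-BCLAF1-L and 639 in sh-Luci. These 4, each on 1 probe set, lay between -0.18 and -0.28, while POLD3 and POLE2 were higher. Their median over all 6 subunits was -0.20, further below zero than the -0.089 of the MCM ring. The NDC80 complex had 3 of 4 subunits higher, SPC25 being the exception, and the chromosomal passenger complex had 1 of 4 higher. Geminin (GMNN), an inhibitor of CDT1, read 991 in sh-BCLAF1-L and 1197 in sh-Luci on 1 probe set, a difference of -0.27, and was named after its value was seen.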
